A study of Mus musculus with 4 samples.

Results

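The genes described here are the Rab GTPases *Rab27a* and *Rab27b* and 4 of their effectors, the synaptotagmin-like proteins *Sytl1*, *Sytl2*, *Sytl3* and *Sytl4*. They were taken by gene name from the annotation of a mouse whole-genome array, as 6 of 28095 names with 9 of 41174 non-control probes, each of 60 bases. The arrays measured LSK cells, mouse bone marrow cells that lack lineage markers, carry Sca-1 and c-Kit, and include hematopoietic stem cells and early progenitors. *Mx1-Cre* positive *Meis1* fl/fl mice, named Meis1-deficient here, were compared with Cre-negative *Meis1* fl/fl mice, named control. Both genotypes carried floxed *Meis1* on a C57BL/6J background. Meis1-deficient mice had received poly(I:C), a double-stranded RNA that induces interferon and through it Mx1-driven Cre, which then acts in the marrow niche and in other interferon-responsive tissues as well as in LSK cells. The protocol gave 4 injections of 1.5 µg per g body weight at 4 to 8 weeks of age, and cells were collected 1 week later. The sources differ on whether control mice had poly(I:C) or a sham treatment. Each genotype was represented by 2 pools of 6 mice with 1 array per pool, so a test between arrays measured only the spread between these pools.

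Rab27 proteins are small GTPases that, when bound to GTP, sit on secretory granules and lysosome-related organelles and recruit effectors that dock these to the plasma membrane. Synaptotagmin-like proteins bind Rab27 through an N-terminal homology domain and membrane lipids through C-terminal C2 domains, and so link granule and membrane. In blood cells this machinery is known from the lytic granules of cytotoxic T cells, the granules of neutrophils and mast cells, and the dense granules of platelets, which are all products of cells that descend from LSK cells.

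The probe sequences were copied from the array's annotation and were not aligned to transcripts here. That of *Sytl1* is printed whole, since the reading of this gene turned on a single dim probe, and the first 30 bases are printed for the other probes shown, which serve to identify them. The pair of *Sytl1* primers is the study's design for quantitative PCR, whose values were not analysed here. The array's annotation places the probes on mm9, and whether a probe lies in a coding exon or an untranslated region was not analysed here.
Sytl1 A_51_P485731, chr4:132811456-132811515, minus strand: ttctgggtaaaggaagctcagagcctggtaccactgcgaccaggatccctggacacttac
Sytl1 forward primer: tctgatgtcctcaaacgagatgc
Sytl1 reverse primer: aaaatgggcgtgatggtgc
Sytl2 A_51_P290921, chr7:97558507-97558566, plus strand: tgacgaatttacttagtaacctctaatgaa
Sytl3 A_51_P461368, chr17:6913535-6919746, plus strand: gtccagtccgacacacagcgctgtcttctc
Sytl4 A_51_P417998, chrX:130471011-130471070, minus strand: atgtttttcaaagattcccttcaatatgga
Rab27a A_52_P29615, chr9:72943705-72943764, plus strand: actgtagactatcactctcaaacacgtgaa
Rab27a A_52_P426740, chr9:72944668-72944727, plus strand: agggactctttgaaacaccaaactcatcat

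The *Sytl3* probe spans 6212 bases of the genome with its 60 bases, so its target is split there. The *Sytl1* and *Sytl3* probes were 55.0% and 53.3% G and C, against 35.0% for *Sytl2* and *Sytl4*. The starts of the *Rab27a* probes lie 963 bases apart on the same strand.

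Values below are log2 of the processed signal minus the 75th percentile of the array, so that 0 marks the signal of the 75th percentile, and each difference is Meis1-deficient minus control. Between 49.2% and 57.4% of spots were well above background per array, with the lowest share on the second Meis1-deficient array, and no spot was saturated. Arrays correlated at 0.891 to 0.968 across probes. Arrays with the same replicate number shared a slide, so each slide held 1 array of each genotype. *Meis1* itself had 2 probes, each lower in the Meis1-deficient pool on both slides. The mean difference was -0.997 at A_52_P670612 and -1.70 at A_52_P26195, both with an adjusted p of 0.983 (limma). The second value includes a Meis1-deficient spot that was not above background, and where the probes lie relative to the deleted exon was not analysed here. The 6 LSK markers on the array (*Kit*, *Ly6a*, *Cd34*, *Gata2*, *Procr* and *Slamf1*) were well above background on all 4 arrays, and none was called different.

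Of the 9 Sytl and Rab27 probes, 4 were well above background on all 4 arrays (1 of *Sytl4*, 2 of *Rab27a* and 1 of *Rab27b*) and 3 on none (those of *Sytl2*, *Sytl3* and 1 of *Rab27b*). Over all 36 spots, 20 were well above background, and 9 held the scanner software's substitute for a signal below it. The test was limited to probes with clear signal in both pools of 1 genotype or of both, a filter that 5 of the 9 probes passed (22008 of all probes did). They belong to 3 genes, *Sytl4*, *Rab27a* and *Rab27b*. None of the 5 met the study's criteria, a change of over 2-fold with a p under 0.01 before adjustment, where 0.736% of all tested probes did, and none met them with the slide as a block, where 1.99% did. None had a p under 0.05 without the block, beside 2.81% of all tested probes, and 1 had with it, beside 6.07%. The same probe, A_52_P671402 of *Rab27b*, was the 1 of the 5 at which the genotypes did not overlap, against 26.8% of all tested probes. It passed the filter through the control arrays alone and held a substitute value on 1 Meis1-deficient array, so neither count is read as a difference. The difference was below 0 at 4 of the 5, this probe included, with a median of -0.32 beside 0.08 over all tested probes, of which 43.7% were below 0. The 4 are the tested probes of only *Rab27a* and *Rab27b*, and both *Rab27a* probes were above 0 on slide 1. No shift of the family is read from this count.

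**Figure D1:**
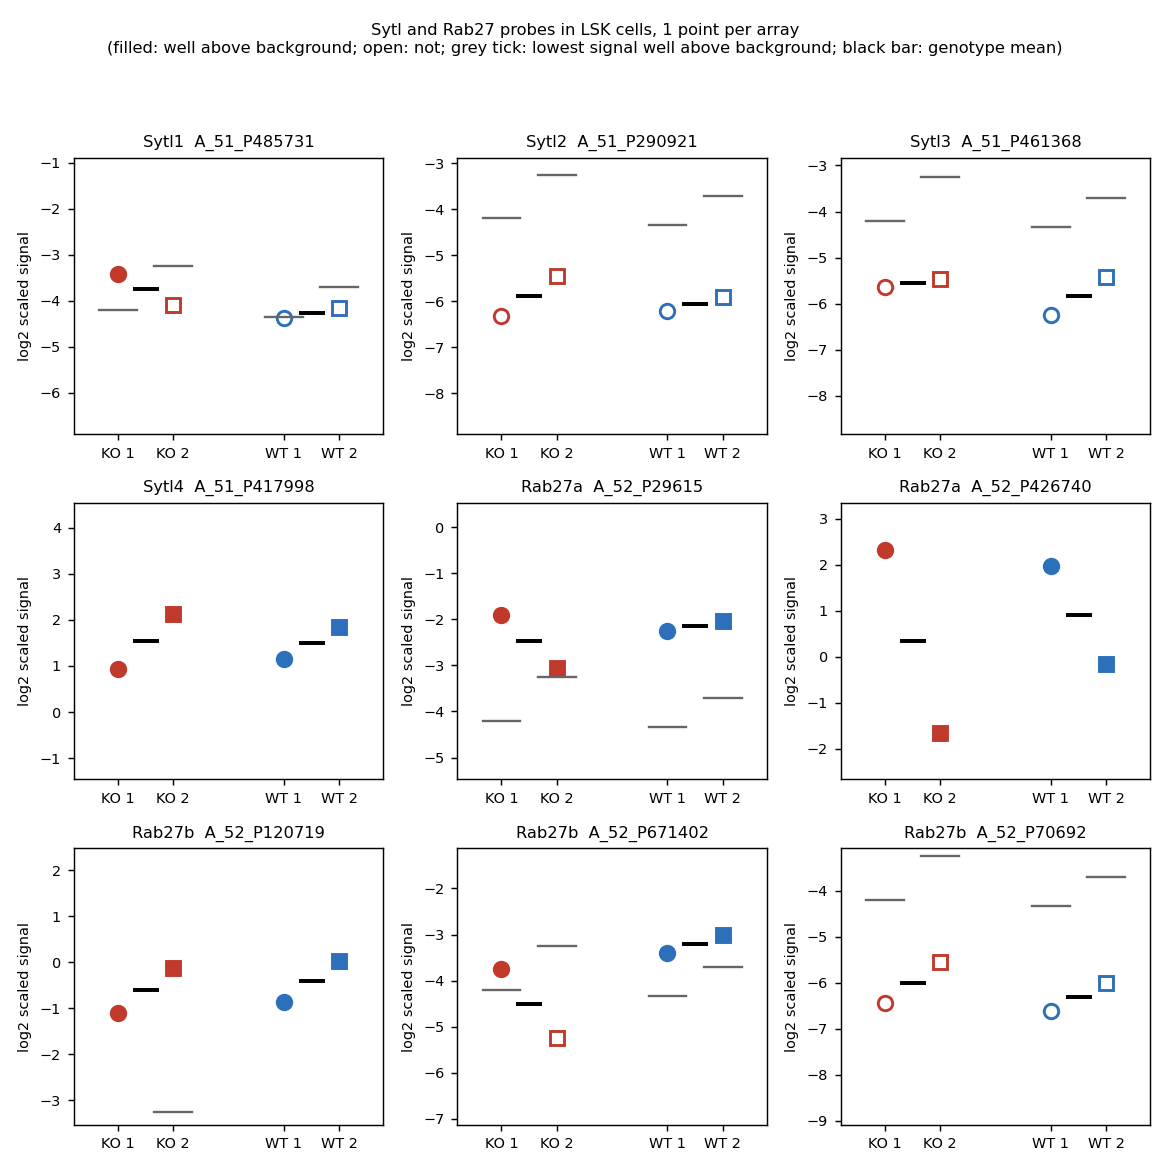
Scaled log2 signal (vertical axis) of each of the 9 probes on the 4 arrays, Meis1-deficient in red and control in blue, with circles for slide 1 and squares for slide 2. Filled points were well above background, open points were not, the grey tick is the lowest well-above-background signal of that array and the black bar is the genotype mean; the Sytl2, Sytl3 and A_52_P70692 points are open on all 4 arrays, and A_52_P426740 of Rab27a is lower on slide 2 in both genotypes.

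*Rab27a*, the GTPase whose loss leaves melanosomes and lytic granules undocked, had its brightest signal at A_52_P426740. This probe read 2.32 and -1.65 in the Meis1-deficient pools and 1.98 and -0.16 in the control pools, which are processed signals of 742, 28.8, 577 and 138. It was high on both arrays of slide 1 and low on both arrays of slide 2, and the genotypes overlapped. The change from slide 1 to slide 2 was -3.97 in Meis1-deficient and -2.14 in control cells, and only 22 of the 22008 tested probes (0.100%) were more than 4-fold lower on slide 2 in both genotypes. The genotype difference was 0.35 on slide 1 and -1.49 on slide 2, with a mean of -0.57 (SE 1.35, 95% interval -3.85 to 2.71, adjusted p = 0.983, limma). With the slide as a block the interval narrowed to -1.81 to 0.67 (adjusted p = 0.958, limma). Its sign rested on single arrays, since it became 1.42 when the second Meis1-deficient array was left out and 0.50 when the first control array was.

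The other *Rab27a* probe, A_52_P29615, did not repeat that split by slide. It read -1.91 and -3.05 in the Meis1-deficient pools and -2.26 and -2.05 in the control pools, with every spot well above background. The value of -3.05, a processed signal of 10.9, was near the lowest signal well above background on that array, -3.25. The second Meis1-deficient array was the lowest, the other 3 lay close together, and the genotypes overlapped. The change from slide 1 to slide 2 was -1.14 in Meis1-deficient and 0.21 in control cells. The genotype difference was 0.35 on slide 1 and -1.002 on slide 2, with a mean of -0.32 (SE 0.53, 95% interval -1.62 to 0.97, adjusted p = 0.983, limma). It was 0.25 without the second Meis1-deficient array and 0.15 with another background correction (normexp). The 2 probes of this gene thus gave the same pair of signs, higher on slide 1 and lower on slide 2, and each slide held 1 pool of a genotype.

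*Rab27b*, the paralog best known from platelets and mast cells, had 3 probes, all on the minus strand of mm9. The brightest, A_52_P120719 (70144135 to 70144194), read -1.10 and -0.12 in the Meis1-deficient pools and -0.87 and 0.03 in the control pools. All 4 spots were well above background, slide 2 was the higher in both genotypes (as for 35.1% of tested probes), and the genotypes overlapped. The difference was -0.23 and -0.16 on the slides, the closest agreement between slides of the 5 tested probes, with a mean of -0.19 (SE 0.56, 95% interval -1.56 to 1.17, adjusted p = 0.987, limma). Leaving out the first Meis1-deficient or the second control array turned it to 0.29 or 0.26.

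The second *Rab27b* probe, A_52_P671402 (70141374 to 70141433), starts 2761 bases from the first and passed the filter through the control arrays alone. It read -3.75 and -5.25 in the Meis1-deficient pools and -3.39 and -3.02 in the control pools, which are processed signals of 11.0, 2.38, 13.95 and 19.0. Both Meis1-deficient arrays were below both control arrays, but the spot on the second Meis1-deficient array was at background and held a substitute value, so the order on slide 2 and the estimates that follow rest on that value. The difference was -0.36 on slide 1 and -2.23 on slide 2, with a mean of -1.29 (SE 0.61, 95% interval -2.76 to 0.18, unadjusted p = 0.0752 and adjusted p = 0.983, limma). With the slide as a block the interval was -2.54 to -0.05 (unadjusted p = 0.0429, adjusted p = 0.791, limma). With the dim spot set to the lowest signal well above background on its array, a choice made after the values were seen, the Meis1-deficient mean was at least 1.23-fold lower. This describes the 4 spots only and is not read as a difference, since the filter was passed through the control arrays alone. Under normexp the difference was 0.18. Without the first Meis1-deficient array it was -2.04 and met the criteria (adjusted p = 0.0620, limma), as did 10.1% of all tested probes, but the Meis1-deficient arm was then the substitute value alone and the control pair alone gave the spread. Without the second Meis1-deficient array, where the remaining 3 spots were all well above background, it was -0.55.

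The third *Rab27b* probe, A_52_P70692 (70299138 to 70299197), carries the accession of a cDNA clone, starts 155003 bases from the brightest probe and is 21.7% G and C. It read between -6.62 and -5.55, held substitute values on all 4 arrays and was not tested. No genotype comparison could be read from it.

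**Figure D2:**
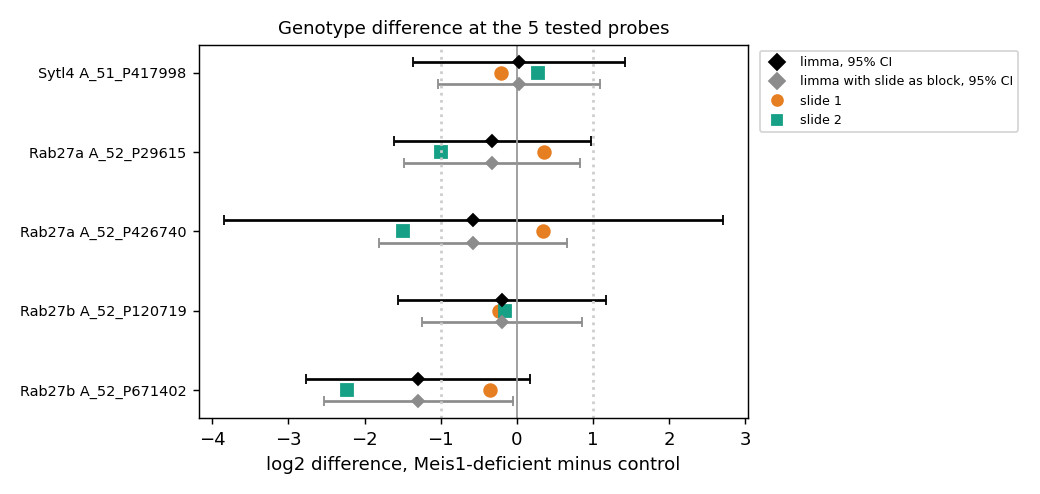
Log2 difference between Meis1-deficient and control LSK cells (horizontal axis) at the 5 tested probes, with black and grey diamonds for the limma estimate without and with the slide as a block, bars for 95% intervals, and circles and squares for slide 1 and slide 2. Dotted lines mark 2-fold; every interval without the block crosses 0, and the slides fall on opposite sides of 0 for Sytl4 and both Rab27a probes.

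*Sytl4*, or granuphilin, docks insulin granules and is also found in platelets, and was the only synaptotagmin-like gene well above background on every array. Its probe read 0.94 and 2.13 in the Meis1-deficient pools and 1.16 and 1.85 in the control pools, which are processed signals of 285, 394, 327 and 556. The slide 2 arrays were above the slide 1 arrays in both genotypes, by 1.18 and 0.69, and the control values lay between the Meis1-deficient ones. The genotype difference was -0.21 on slide 1 and 0.27 on slide 2, with a mean of 0.03 (SE 0.57, 95% interval -1.36 to 1.42, adjusted p = 0.996, limma). With the slide as a block the interval was -1.03 to 1.09 (adjusted p = 0.994, limma), so a change of about 2-fold in either direction was within it. The sign turned with quantile scaling (-0.094), with normexp (-0.059) and when the second Meis1-deficient array (-0.56) or the first control array (-0.32) was left out.

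*Sytl1*, an effector known from neutrophil granule secretion, was well above background on 1 of 4 arrays. Its probe read -3.41 and -4.09 in the Meis1-deficient pools and -4.38 and -4.15 in the control pools, which are processed signals of 13.9, 5.29, 7.05 and 8.70. The first Meis1-deficient array was the one above background, both Meis1-deficient values were above both control values, and the margin on slide 2 was 0.05 against 0.96 on slide 1. The means were -3.75 ± 0.48 (SD, n = 2) and -4.26 ± 0.16 (SD, n = 2), a difference of 0.51 that was not tested because the probe did not pass the filter on dim probes. No bound on the fold is given, since the second Meis1-deficient spot was itself not above background.

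*Sytl2*, which takes part in docking melanosomes and lytic granules, and *Sytl3*, a further family member, were not well above background on any array. The *Sytl2* probe read -6.31 and -5.46 in Meis1-deficient and -6.22 and -5.91 in control cells, with substitute values on 3 of the 4 arrays. The *Sytl3* probe read -5.64 and -5.47 in Meis1-deficient and -6.25 and -5.42 in control cells, with 1 substitute value. At these levels neither presence nor a genotype difference was detectable. In sorted bulk cells, moreover, fewer cells that express a gene and less RNA of it per cell cannot be told apart.

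RefSeq start-site windows of 300 bases on GRCm38.p6 were listed for 4 of the 6 genes, with 5 windows in all (*Sytl1*, *Sytl3*, *Sytl4* and 2 for *Rab27a*). The Meis recognition core TGACAG, searched on both strands, was in 1 of the 5, and in 6300 of all 32851 windows (19.2%). The match was in a *Rab27a* window and ended upstream of the start, with its first base 46 bases before it; capitals mark the motif. It is shown because Meis1 is the factor deleted here, and it describes letters only.
Rab27a, chr9:73044754-73044779, GRCm38.p6, plus strand: tgcgggcaggTGACAGgaggcggagg

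The rest of the Rab27 pathway was followed through 67 genes in 5 lists, of which 43 had a tested probe. At the brightest tested probe of each gene, 16 differences were below 0 and 27 above, with a median of 0.19. Over all tested probes 43.7% were below 0, with a median of 0.08, or of 0.13 with signal required on all 4 arrays. The gene *Stx11* alone met the criteria, as 0.736% of all tested probes did, and it also met them in the blocked fit, as 1.99% did. It was also the 1 gene with an unadjusted p under 0.05 without the block, beside 2.81% of all tested probes. With the block 2 genes had one, both among exocytic SNARE proteins and their regulators, beside 6.07%.

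Among 7 other Rab27 effectors, 3 were tested and none was called. *Myo5a*, the myosin that carries Rab27a-bound melanosomes, differed by -0.999 (SE 0.81) at its brightest probe, -0.042 on slide 1 and -1.96 on slide 2, and by -0.62 at the other. The motor *Myo7a* and *Unc13d*, which primes lytic granules for fusion, were the other two, and *Unc13d* differed by -0.04. *Myo7a* differed by -0.89, a value that includes a spot not above background on the second Meis1-deficient array and a filter passed through the control arrays alone. On slide 1 *Myo7a* and *Unc13d* differed by 0.51 and 0.13. *Sytl5*, *Myrip* and *Exph5* were at background on all arrays. Among the 10 genes for activation, prenylation and recycling of Rab27, all 10 were well above background on all arrays, 8 were above 0 and 2 below. None was called, and the median was 0.29, beside 0.13 over all probes well above background on all arrays. *Rabggta*, a subunit of the enzyme that attaches the lipid anchor to Rab proteins, differed by 0.62 (SE 0.56). *Tbc1d10a*, which stimulates GTP hydrolysis by Rab27, differed by -0.62 (SE 0.64).

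Of 13 other secretory Rab GTPases, 10 were tested, 9 of them above 0 and 1 below, with none called. Their median was 0.26, beside 0.13 over all probes well above background on all 4 arrays, as these 10 were. *Rab38* of lysosome-related organelles differed by 0.55 (SE 0.45), *Rab3a* of synaptic vesicles by 0.51 (SE 0.47) and *Rab11b* of recycling endosomes by -0.20 (SE 0.43), with its 4 probes spread from -0.91 to 0.05. Of 17 synaptotagmins, the family after which the Sytl proteins are named, 11 were at background on all arrays and 3 were tested. *Syt11* differed by -0.51 (SE 0.43) and *Syt16* by 0.46 (SE 0.50), and neither was called.

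Exocytic SNARE proteins and their regulators had 17 of 20 genes tested, 8 below 0 and 9 above, with a median of 0.19. *Stx11*, a syntaxin needed for the secretion of lytic granules and platelet granules, was the gene that met the criteria. Its probe A_51_P513568 read -2.38 and -2.93 in the Meis1-deficient pools and -1.03 and -0.41 in the control pools, well above background on all 4 arrays. The value of -2.93 was near the lowest signal well above background on that array, -3.25. Both Meis1-deficient values were below both control values, with differences of -1.36 on slide 1 and -2.52 on slide 2. The mean difference was -1.94 (SE 0.48, 95% interval -3.10 to -0.77, unadjusted p = 0.00636, limma), with an adjusted p of 0.983, and of 0.323 with the slide as a block. It was -0.56 under normexp and no longer met the criteria, and by the methods' t-test on the same values it did not meet them either. With 1 array left out it ranged from -2.25 to -1.63, but each such fit leaves 1 array in a genotype and none is read as a call. *Vamp8*, the granule SNARE of platelets and mast cells, differed by 0.49 (SE 0.49).

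**Figure D3:**
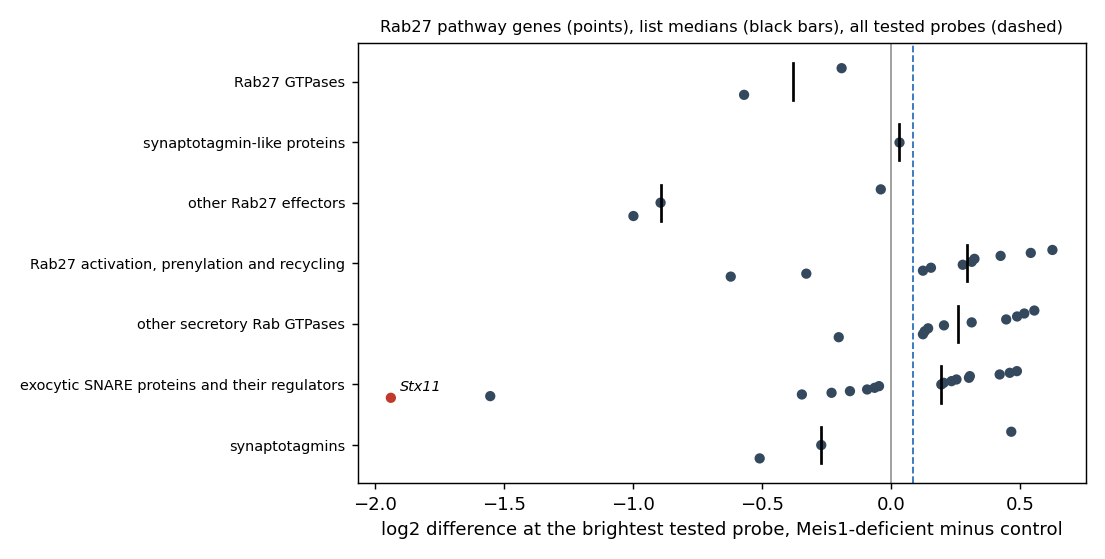
Log2 difference between Meis1-deficient and control LSK cells (horizontal axis) at the brightest tested probe of each gene, 1 point per gene, by list (vertical axis). Black bars are list medians and the dashed line is the median of all tested probes (0.08); Stx11, in red, is the point that met the study's criteria by limma, at -1.94, though not by the methods' t-test.

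Markers of cells that use this machinery were summed as scaled signals, in the order first and second Meis1-deficient, then first and second control array. Megakaryocyte and platelet markers, 6 of 8 tested and all 6 above background on every array, summed to 10.2, 13.2, 10.8 and 36.8, so the second control array stood above the other 3. Cytotoxic T and NK markers, 4 of 8 tested, summed to 4.45, 8.79, 4.94 and 4.45, with *Prf1*, *Ncr1* and *Cd3e* at background on all arrays. Mast cell and basophil markers, 2 of 7 tested, summed to 2.43, 1.61, 3.40 and 1.47. Granulocyte and monocyte markers, with 8 of 9 on the array and 6 tested, summed to 130, 111, 110 and 56.2, lowest on the second control array. B and plasma cell markers, 5 of 8 tested, summed to 4.38, 23.5, 24.8 and 12.6, lowest on the first Meis1-deficient array. Of the 23 genes tested in these lists 1, *Elane*, met the criteria (-1.58), beside the 0.736% of all tested probes. An unadjusted p under 0.05 was found for 3 of the 23, beside 2.81%, and for 6 in the blocked fit, beside 6.07%. The 3 were *Elane*, *Itga2b* of megakaryocytes (-1.65, unadjusted p = 0.0469, limma) and *Cd8a* of cytotoxic T cells (-1.34, unadjusted p = 0.0196, limma). Each was lower in the Meis1-deficient pool on both slides, but their lists were split. Tested granulocyte markers had 4 below 0 and 2 above (*Mpo* 0.56, *Ctsg* 0.92). Cytotoxic markers had 2 below and 2 above (*Nkg7* 0.50, *Gzmb* 0.82), and megakaryocyte markers 3 and 3. The *Cd8a* spot on the second Meis1-deficient array was not above background. *Cd8a* passed the filter through the control arrays alone, so its p is not read as a difference. The sums are not levels of whole lists, since 1 gene made up much of each. *Mpo* gave 73.8% to 89.8% of the granulocyte sum, *Nkg7* 82.4% to 90.8% of the cytotoxic sum and *Igj* 59.4% to 86.3% of the B and plasma cell sum. *Cpa3* gave 50.3% to 70.0% of the mast cell sum and *Pf4* 35.2% to 78.4% of the megakaryocyte sum. Gene by gene, both mast cell markers and 3 of 6 granulocyte markers were higher on slide 1 in both genotypes, as were 26.3% of all tested probes and *Rab27a* A_52_P426740 but not *Rab27a* A_52_P29615, while 2 of the 6 granulocyte markers, *Elane* and *Prtn3*, were higher on slide 2. Of the 6 megakaryocyte markers 3 were higher on slide 2 in both genotypes, as were 35.1% of all tested probes, *Sytl4* and *Rab27b* A_52_P120719, and none was higher on slide 1 in both. The part of such cells in these values was not tested.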

How the data were processed

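From each LSK pool, 10 ng of RNA was amplified, labeled and read on a 1-color array. The authors deposited spot intensities from Feature Extraction 9.5.3.1 (per the file headers; the submitters' processing notes give 9.1), background-subtracted and detrended within each array. Dim spots then hold a substitute value (25.2% to 33.2% of spots), which makes differences between dim probes uncertain. From the processed signal, log2 values were taken without control or outlier spots and centered on the 75th percentile of each array. Genotypes were compared with limma 3.58.1 in R 4.3.3 over 22008 tested probes, with Benjamini-Hochberg adjustment over all of them. The fit was tested on simulated data. The number of arrays limits the precision, since an exact permutation test of 2 against 2 cannot go below a two-sided p of 0.333. Replicate number equals slide, and same-numbered arrays deviated together (r = 0.266 across probes), so fits with this block are given.

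Probes were matched by gene name, and 8 of 9 also by RefSeq accession. Named pathway genes are those that met the criteria and, in each list, the 3 largest differences of like sign on both slides, except that some single genes are not reported here. Each gene is represented by its brightest tested probe. The genes, lists and rules were chosen with earlier results of these data known. The bound for A_52_P671402 and the profiles nearest to *Sytl4* were chosen after their values were seen, the latter because *Sytl1*, for which they were planned, had no tested probe. The analysis was repeated with other scalings (median, quantile), with normexp background correction (offset 50), from the authors' series table, without the filter and with signal required on all 4 arrays, with outlier spots included, with the slide as block, by the methods' t-test, with a limma intensity trend, with the mean over a gene's probes, and with each array omitted.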

Additional observations from a re-analysis of the deposited data

Results flagged for a closer look

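*Sytl1* gave a signal outside the tested data. Its probe A_51_P485731 stood at -3.41 on the first Meis1-deficient array, where it was well above background, whereas on the other 3 arrays, both control arrays included, it was not.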

How the results depend on the processing

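No Sytl or Rab27 probe met the criteria under the alternatives of scaling, background, filter, test or block, and with single arrays left out 0 to 1 did (A_52_P671402 of *Rab27b*, -2.04 without the first Meis1-deficient array, a setting in which 10.1% of all tested probes met them and that leaves a substitute value as the Meis1-deficient arm). Signs turned under normexp for A_52_P29615 of *Rab27a* (0.15), A_52_P671402 of *Rab27b* (0.18) and *Sytl4* (-0.059), and under quantile scaling for *Sytl4* (-0.094). With single arrays left out, differences ranged from -0.90 to 0.25 (A_52_P29615), -2.56 to 1.42 (A_52_P426740), -0.68 to 0.29 (A_52_P120719) and -0.56 to 0.62 (*Sytl4*). The replicate block changed no call among these probes or for *Stx11*, which did not meet the criteria under normexp or the methods' t-test. Over all tested probes, 132 were lower and 30 higher in Meis1-deficient cells. These counts were 307 and 130 with the block, 47 and 2 with normexp, 43 and 10 with the filter on all 4 arrays, 23 and 7 by the methods' t-test, and 85 and 16 with an intensity trend. Without a filter 100 were higher. With single arrays left out, 57 to 1705 were lower and 34 to 510 higher. The cause was not tested. Signal over background left 4 of the 9 probes untested and limits what can be said of *Sytl1*, *Sytl2* and *Sytl3*.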

Other observations

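The probes whose 4 values, each centered on its own mean, lay nearest to those of *Sytl4* were *Pfas* (distance 0.0423), *Siae* (0.0441), *Atxn7l2* (0.0508), *Naaa* (0.0602) and *Bax* (0.0783), by Euclidean distance on the log2 scale among 16930 probes with a symbol and well above background on all 4 arrays. They were chosen for this likeness, for example *Pfas* with 1.12 and 2.25 in Meis1-deficient and 1.28 and 2.01 in control cells.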
